A study of Mus musculus with 12 samples.

Results

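The genes described here are 39 genes of the ATF4 response and of amino acid supply in mouse bone marrow cells that carried retroviral mutant SETBP1, mutant NRAS, both or neither. They were chosen as a list of gene symbols, read across all groups, and comprise 12 stress factors, 9 enzymes of amino acid synthesis, 7 amino acid transporters and 11 aminoacyl-tRNA synthetases. All 39 were among the 19910 genes of the count table and all passed the filter on low counts, with 10993 genes tested.

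The marrow came from female C57BL/6J mice aged 6 to 10 weeks, and the labels call the cells murine leukemia cells. The 4 groups were transduced with EMPTY and EMPTY vectors (called Empty), SETBP1 (D868N) and EMPTY (SETBP1), EMPTY and NRAS (G12D) (NRAS), or SETBP1 (D868N) and NRAS (G12D) (SETBP1+NRAS), with 3 libraries each. All groups therefore went through retroviral transduction, with virus made in 293T17 cells, a human packaging cell line. SETBP1 (D868N) and NRAS (G12D) were expressed from vectors in addition to the cells' own genes. The labels do not say whether the libraries of a group came from separate mice or cultures, so p-values measure only the spread between these libraries, which may be technical.

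ATF4 is a transcription factor whose own messenger RNA is translated more efficiently when kinases phosphorylate the initiation factor eIF2, as they do when amino acids run short or when unfolded protein accumulates in the endoplasmic reticulum. It then switches on genes for stress signalling, for making and importing amino acids, and for loading amino acids onto tRNAs. Dividing leukemia cells draw on the same genes for protein and nucleotide synthesis, the latter through serine and folate-bound carbon units. Because ATF4 is set largely at translation, its RNA level is not a measure of its protein or activity.

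Many promoters of such genes carry a composite site for C/EBP and ATF proteins, of which the letters TGATGNAA on either strand were searched. A window reaching from 250 bases before to 50 bases after the start of the gene was found in RefSeq (GRCm38.p6) for 32 of the 39 genes, and none for Eif4ebp1, Slc7a5, Slc1a5, Nars, Wars, Lars and Cars. The letters stood in the 250 bases before the start in 8 of these 32 genes (25%), against 3.91% of 27025 genes with such a window. In the whole window they stood in 12 of 32 (37.5%), against 4.51%. The genes were listed as members of the ATF4 response, whose promoters often carry this site. The higher share is therefore not independent of the choice of genes. The 8 stretches that hold the letters are printed as a description. A gene can have several RefSeq starts, each with its own window (32851 windows in all), and a gene was counted where any of them held the letters. For Vldlr, Aars, Nupr1 and Asns the RefSeq start used lies inside the GENCODE gene whose coordinates are used elsewhere, so that these matches are before that start but within the annotated gene. Each is given on the strand of its gene, 5′ to 3′, with the match in capitals.
Chac1, chr2:119351029-119351076, + strand, 193 bases before the start: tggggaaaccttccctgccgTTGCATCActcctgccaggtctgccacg
Asns, chr6:7693210-7693252, - strand, 23 bases before the start: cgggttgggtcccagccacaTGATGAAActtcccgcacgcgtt
Gars, chr6:55037951-55037998, + strand, 30 bases before the start: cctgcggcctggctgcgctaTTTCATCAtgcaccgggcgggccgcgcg
Nupr1, chr7:126625553-126625600, - strand, 110 bases before the start: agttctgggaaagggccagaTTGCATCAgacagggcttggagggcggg
Aars, chr8:111033710-111033757, + strand, 112 bases before the start: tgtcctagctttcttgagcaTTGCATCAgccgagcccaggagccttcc
Pycr1, chr11:120643824-120643871, - strand, 103 bases before the start: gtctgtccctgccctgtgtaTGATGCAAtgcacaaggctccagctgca
Tars, chr15:11399659-11399693, - strand, 15 bases before the start: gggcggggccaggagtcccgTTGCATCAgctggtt
Vldlr, chr19:27216800-27216847, + strand, 200 bases before the start: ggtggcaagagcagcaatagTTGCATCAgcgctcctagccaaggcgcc
By role, the match stood before the start in 3 of 11 stress factors, 2 of 9 enzymes, none of 5 transporters and 3 of 7 tRNA synthetases with a window. Of the 8 genes, Chac1, Asns and Pycr1 passed the test in no pairwise comparison given below, while Gars, Nupr1, Aars, Tars and Vldlr passed it in at least 1. Of all 39 genes, 12 passed in none, a similar share. A link between the letters and the calls was not tested. The match is a description of letters, and binding was not measured.

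The libraries held between 7085894 and 8864919 counts. Nras stood at 81.4 to 96.5 CPM (counts scaled to a common library total) without the NRAS vector and at 1393 to 1680 with it. Setbp1 had no count in any Empty or NRAS library, 5 to 7 counts in the SETBP1 libraries and 11 to 17 in the SETBP1+NRAS libraries. Replicate 3 of SETBP1 stood apart from the other SETBP1 libraries in a way that followed transcript length. Its median log2 difference from the mean of replicates 1 and 2 went from 0.24 for the genes with transcripts between 1000 and 2000 bases to -0.66 for the 1100 genes above 6000 bases, and it had 11835 genes with a count against 12461 to 12800 in the other libraries. Among the 39 genes, Slc1a4 (-1.95), Slc7a1 (-1.24), Pycr1 (-1.09) and Iars (-1.01) were lowest in this library, and Nupr1 (0.71), Ddit4 (0.58) and Atf5 (0.55) highest. Where leaving it out changed a call of the 39 genes or moved a called value by over 1.5 times, the value without it is given beside the result.

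**Figure D1:**
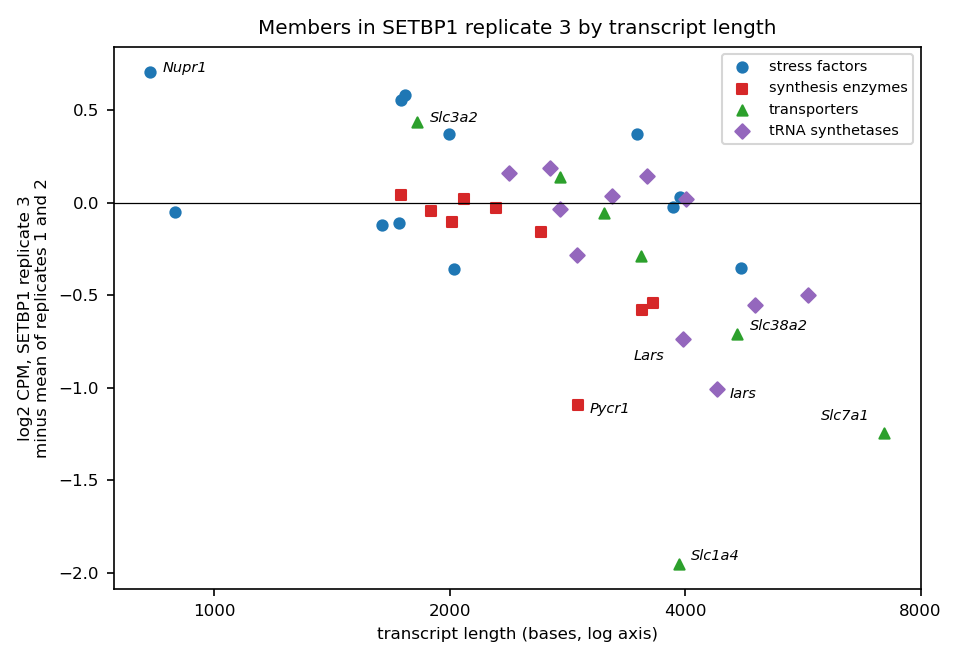
Log2 difference between SETBP1 replicate 3 and the mean of SETBP1 replicates 1 and 2 (vertical axis) against transcript length in bases (log axis). Points are the 39 ATF4 and amino acid genes, marked by role. Those with long transcripts tend to lie lower (Spearman correlation -0.563 over the 39), and Slc1a4 lies lowest at -1.95.

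Myeloid markers (10 of 10 in the table, Mpo, Elane and Lyz2 among them) were high as a sum in every library, which fits the label of marrow cells. Hbb-bs, Hba-a1, Hba-a2, Pax5, Cd3e and Cd8a were at 0. Cell makeup or state differed with the vectors. The summed myeloid level was 34160 to 34950 CPM in Empty, 31770 to 46330 in SETBP1, 12500 to 14150 in NRAS and 9764 to 10250 in SETBP1+NRAS libraries. The 46330 was SETBP1 replicate 3, and replicates 1 and 2 (31770 and 33960) were below Empty. For 9 mast cell and basophil genes the sum was 1414 to 1446, 767.9 to 1001, 547.6 to 935.6 and 349.9 to 478.5 in the same order of groups. The 10 proliferation genes summed to 2780 to 2803, 2583 to 2653, 3185 to 3285 and 3133 to 3182. Megakaryocyte genes were at 212.2 to 250.6, 292.2 to 621.4, 139.8 to 200.3 and 241.8 to 269.5. The 621.4 was again SETBP1 replicate 3, against 292.2 and 299.2 in replicates 1 and 2. The megakaryocyte sum does not show the single genes. By the edgeR test given below, 1 of the 6 was higher and 4 were lower with both mutants than in Empty (median log2 change -2.17). There, 40.6% of all genes tested passed. Stroma and endothelium genes stood at 100.2 to 116.3, 72.8 to 81.4, 174.3 to 279.9 and 175.2 to 194.8, with Col3a1 and Cxcl12 at 0. Of these 6 genes, only 1 passed the filter on low counts. The erythroid and B cell sums reached at most 10.8 and 21.6, and T cell genes reached at most 0.553. Single myeloid genes did not all follow their sum. Of the 10, 2 were higher and 6 lower with NRAS against Empty, where 32.5% of all genes tested passed. With both mutants against Empty, 2 were higher and 7 lower. These marker levels moved with the groups, and their part in the changes given below was not tested. In bulk RNA, fewer cells of a type and less RNA per cell cannot be told apart.

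In both groups with NRAS, the stress factors Ddit3, Trib3, Stc2 and Eif4ebp1 and the enzymes Psat1 and Mthfd2 rose from Empty. So did 3 to 5 of the 11 tRNA synthetases and 2 to 4 of the 7 transporters. These rises were 0.19 to 0.70 on the log2 scale. Beside this, 32.5% of all genes tested passed with NRAS (17.0% higher) and 40.6% with both mutants (20.8% higher). The median change of the 12 stress factors was -0.09 with NRAS and -0.14 with both. The calls of Trib3 and Psat1, among others, were lost with library-size scaling. Sesn2 and Gpt2 fell in both groups with NRAS, and Vldlr, Cebpg, Psph and Slc6a9 fell with both mutants. With SETBP1 alone, 5 genes rose, among them the serine enzymes Phgdh and Shmt2 and the stress factor Nupr1. Atf4 itself passed the test in no pairwise comparison. Tests were edgeR quasi-likelihood tests on all genes with Benjamini-Hochberg adjustment, and a gene is said to have risen or fallen where its adjusted p was under 0.05. The comparisons with Empty share the same 3 Empty libraries.

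With SETBP1 against Empty, 5 of the 39 genes rose (Phgdh, Shmt2, Nupr1, Eif4ebp1 and Slc3a2) and none fell, while 14.9% of all genes tested passed (8.31% higher, 6.55% lower). The median log2 change was -0.04 over the 39 genes and -0.01 over all genes. With NRAS against Empty, 11 rose and 2 fell, beside 32.5% of all genes (17.0% higher, 15.5% lower), and the medians were 0.14 and -0.01. With SETBP1+NRAS against Empty, 16 rose and 6 fell, beside 40.6% of all genes (20.8% higher, 19.8% lower), with medians of 0.14 and -0.01. With SETBP1+NRAS against SETBP1, 10 rose and 7 fell, beside 42.4% of all genes (20.9% higher, 21.5% lower), with medians of 0.15 and -0.00. The share of the 39 genes that passed was near that of all genes in the comparisons of SETBP1 and of NRAS with Empty and of SETBP1+NRAS with SETBP1, and above it for SETBP1+NRAS against Empty. In that last comparison it was 15 of 39 with library-size scaling and 14 of 39 without Empty replicate 3. These are no longer above the 40.6% of all genes in the main fit. The share of all genes in those altered fits is not given here, so the comparison is not within the same fit.

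The balance of higher and lower calls depended on scaling. Scaled by library size alone, the counts of higher and lower genes were 7 and 4 with NRAS, 8 and 7 with SETBP1+NRAS against Empty, and 6 and 9 with SETBP1+NRAS against SETBP1. Library-size scaling moved the median of all genes to -0.10 and -0.13 in the comparisons of NRAS and of SETBP1+NRAS with Empty. With upper-quartile scaling the counts were 7 and 3, 13 and 6, and 7 and 9. Without SETBP1 replicate 3, 20 genes were called with NRAS, 23 with SETBP1+NRAS against Empty and 23 with SETBP1+NRAS against SETBP1. Fitting only the groups compared left no call with SETBP1.

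**Figure D2:**
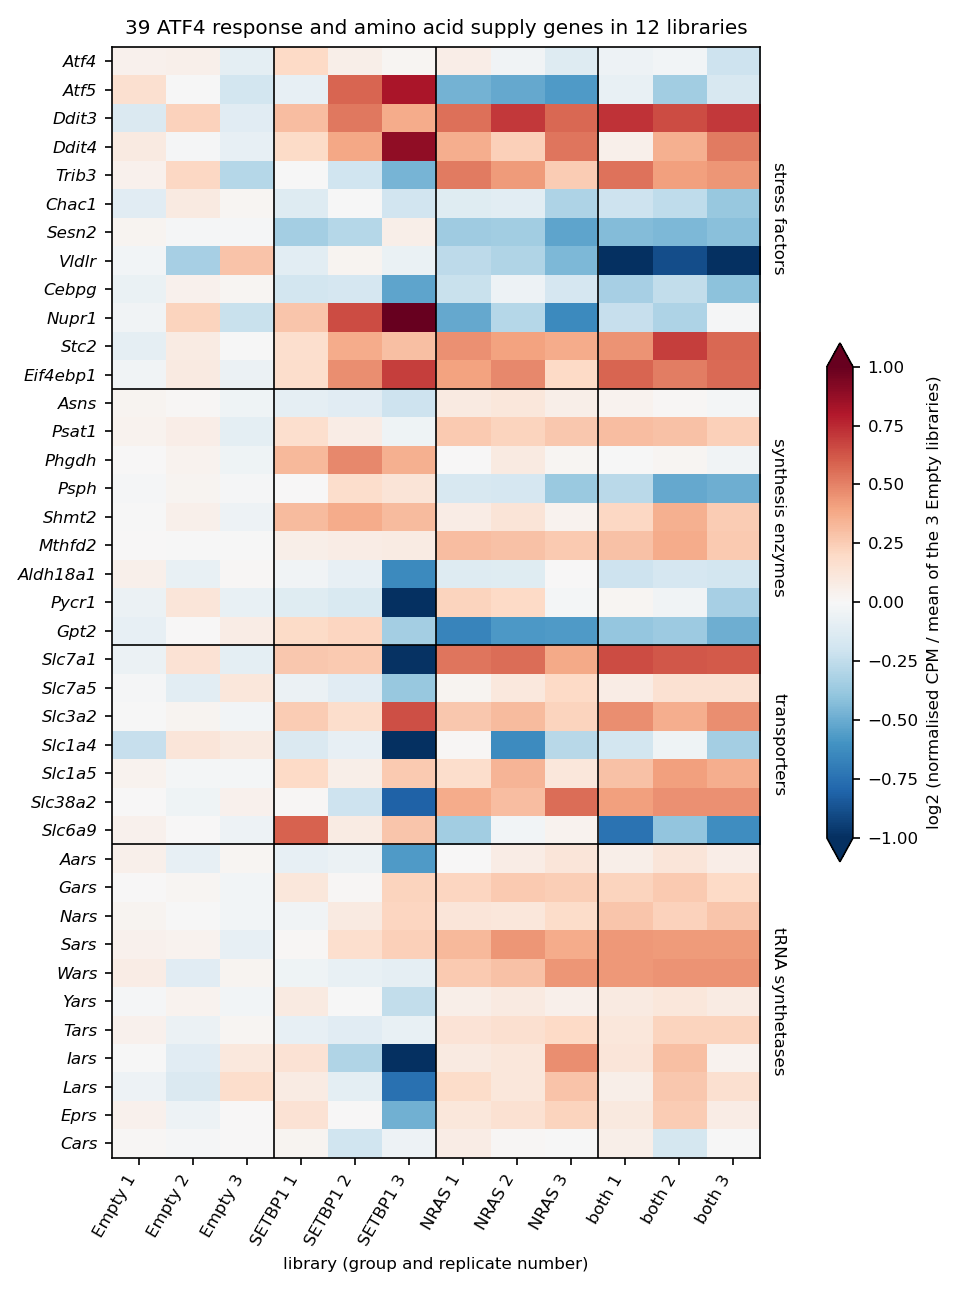
Log2 normalised CPM of the 39 genes (rows, by role) in the 12 libraries (columns), each minus the mean of the 3 Empty libraries, with colours limited to 1 in either direction. SETBP1 replicate 3 differs from its group for several long transcripts such as Slc1a4 and Slc7a1, and the tRNA synthetase rows are mostly above 0 in the 6 libraries with NRAS (by library-size scaling, 8 of the 11 log2 changes with NRAS were positive).

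Atf4, the transcription factor itself (chromosome 15, 80255184 to 80257541, GRCm38), was an abundant transcript. It stood at 434, 437 and 395 normalised CPM in the Empty libraries, 485, 438 and 427 in SETBP1, 442, 411 and 385 in NRAS, and 408, 413 and 364 in SETBP1+NRAS. The groups overlapped, except that all 3 libraries with both mutants were below those with SETBP1 alone. Its log2 changes from Empty were 0.09 with SETBP1 (adjusted p = 0.424), -0.03 with NRAS (adjusted p = 0.806) and -0.09 with both (adjusted p = 0.378). Against SETBP1, the change with both was -0.19 (SE 0.08, adjusted p = 0.0741), and without SETBP1 replicate 3 it was -0.22 (adjusted p = 0.0209). Per kilobase of the gene's merged annotated exons, the level in Empty was 178.8 CPM per kb for Atf4 and 197.7 for Phgdh, against 2.09 for Slc6a9 and 3.77 for Atf5.

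Ddit3 encodes CHOP, a transcription factor that ATF4 induces under prolonged stress. Its level was 12.9, 16.8 and 13.2 CPM in Empty, 17.7, 20.7 and 18.5 in SETBP1, 21.0, 23.4 and 21.3 in NRAS, and 23.6, 22.5 and 23.4 in SETBP1+NRAS. Every library with a mutant was above every Empty library. Ddit3 rose with NRAS by 0.61 on the log2 scale (SE 0.14, adjusted p = 0.00384) and with both by 0.70 (SE 0.14, adjusted p = 0.0012), and the SETBP1 change of 0.40 did not pass (adjusted p = 0.0656). The annotated exons of Ddit3 overlap those of Mars, a methionyl-tRNA synthetase gene, so part of its reads cannot be told apart without strand.

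Trib3, a pseudokinase that ATF4 and CHOP induce and that dampens their signal, stood at 43.8, 49.1 and 34.95 CPM in Empty and 42.5, 37.1 and 30.9 in SETBP1. In NRAS it was at 61.2, 57.4 and 50.7 and in SETBP1+NRAS at 62.2, 56.7 and 58.0. The 6 NRAS-carrying libraries were above the other 6. Trib3 rose by 0.40 with NRAS (SE 0.14, adjusted p = 0.042) and by 0.47 with both (SE 0.14, adjusted p = 0.0166). The first call was lost in 12 of 23 settings, for example without Empty replicate 1 (adjusted p = 0.094) or 3 (0.191), NRAS replicate 1 (0.142) or 2 (0.103), SETBP1 replicate 2 (0.0549), or any SETBP1+NRAS library (0.0548 to 0.0569). The second was lost without Empty replicate 3 (0.0907) or SETBP1+NRAS replicate 1 (0.0607) and with library-size scaling (0.0879). Against SETBP1, Trib3 rose by 0.68 with both (SE 0.14, adjusted p = 0.00177).

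Vldlr, a lipoprotein receptor that ATF4 can induce, moved the other way. Its level was 18.4, 14.9 and 22.8 CPM in Empty, 17.3, 19.1 and 17.9 in SETBP1, 15.6, 15.2 and 13.7 in NRAS, and 9.23, 10.1 and 8.88 in SETBP1+NRAS. The libraries with both mutants were below all 9 others, and the NRAS libraries overlapped Empty. Vldlr fell by 0.99 on the log2 scale with both against Empty (SE 0.17, adjusted p = 0.000388) and by 0.94 against SETBP1 (SE 0.17, adjusted p = 0.000606).

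Nupr1, a small stress-induced chromatin protein, was at 18.7, 22.4 and 16.5 CPM in Empty and at 23.2, 30.2 and 43.4 in SETBP1. In NRAS it was at 13.5, 15.7 and 12.3 and in SETBP1+NRAS at 16.4, 15.5 and 19.0. All SETBP1 libraries were above all others, and replicate 3 was the highest. Nupr1 rose with SETBP1 by 0.75 (SE 0.21, adjusted p = 0.0287). The change was 0.47 (adjusted p = 0.0532) without that replicate and did not pass without Empty replicate 1 (0.74, adjusted p = 0.0937) or Empty replicate 3 (0.66, adjusted p = 0.123). It fell by 0.93 from SETBP1 to SETBP1+NRAS (SE 0.21, adjusted p = 0.00294). With NRAS the change was -0.47 (adjusted p = 0.111), which passed without SETBP1 replicate 3 (adjusted p = 0.0182).

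Atf5, a relative of ATF4, had 8.41, 7.49 and 6.61 CPM in Empty, 7.11, 11.2 and 13.3 in SETBP1, 5.42, 5.28 and 5.07 in NRAS, and 7.13, 5.89 and 6.73 in SETBP1+NRAS. The SETBP1 libraries were spread widely, and the lowest of them overlapped those with both. Atf5 fell by 0.68 from SETBP1 to SETBP1+NRAS (SE 0.23, adjusted p = 0.0304). That call was lost without SETBP1 replicate 2 (adjusted p = 0.0675) or 3 (-0.47, adjusted p = 0.102) and without SETBP1+NRAS replicate 1 (0.0546), 2 (0.102) or 3 (0.0684). Its exons overlap those of Il4i1 and Nup62.

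The other stress factors split. Eif4ebp1, which encodes the translation repressor 4E-BP1, rose with SETBP1 (log2 change 0.46, SE 0.11, adjusted p = 0.0188), NRAS (0.36, adjusted p = 0.0238) and both (0.55, adjusted p = 0.00139), from 142.4 ± 7.85 CPM in Empty (SD, n = 3) to 209.1 ± 5.69 with both. Its SETBP1 call was lost without Empty replicate 1 (adjusted p = 0.0728) or 3 (0.085), and its NRAS call without Empty replicate 1 or 3 or NRAS replicate 1 or 2 (0.0713 to 0.0985). Stc2, a secreted glycoprotein, rose with NRAS by 0.41 (adjusted p = 0.0139) and with both by 0.58 (adjusted p = 0.00113), the first lost without Empty replicate 1 (0.0661) or NRAS replicate 1 (0.0502). Sesn2, a leucine sensor that restrains mTORC1, fell by 0.41 with NRAS (SE 0.11, adjusted p = 0.0111) and by 0.43 with both (SE 0.11, adjusted p = 0.00605), from 64.6 ± 1.00 CPM to 48.6 ± 3.28 and 47.8 ± 0.540. Without NRAS replicate 3 its NRAS call was lost (adjusted p = 0.0514), and without SETBP1 replicate 3 it fell with SETBP1 by 0.31 (adjusted p = 0.0275). Cebpg, a partner of ATF4 on DNA, fell by 0.33 with both (SE 0.10, adjusted p = 0.0198), a call lost without Empty replicate 2 or 3 or SETBP1+NRAS replicate 1 or 3 (0.0517 to 0.0822). Chac1, which breaks down glutathione and is among the most responsive ATF4 targets, was at 21.8 ± 1.57 CPM in Empty, 20.3 ± 1.36 in SETBP1, 19.3 ± 1.49 in NRAS and 18.0 ± 1.06 with both, and passed in no pairwise comparison. With SETBP1 replicate 3 left out, Stc2 (0.31, adjusted p = 0.0449) and Eif4ebp1 (0.23, adjusted p = 0.0415) were also higher with both than with SETBP1. Ddit4, an mTORC1 inhibitor, passed in none either. Of the 12 stress factors, 4 rose and 1 fell with NRAS, and 4 rose and 3 fell with both against Empty, with median changes of -0.09 and -0.14. Beside these, 32.5% and 40.6% of all genes tested passed.

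**Figure D3:**
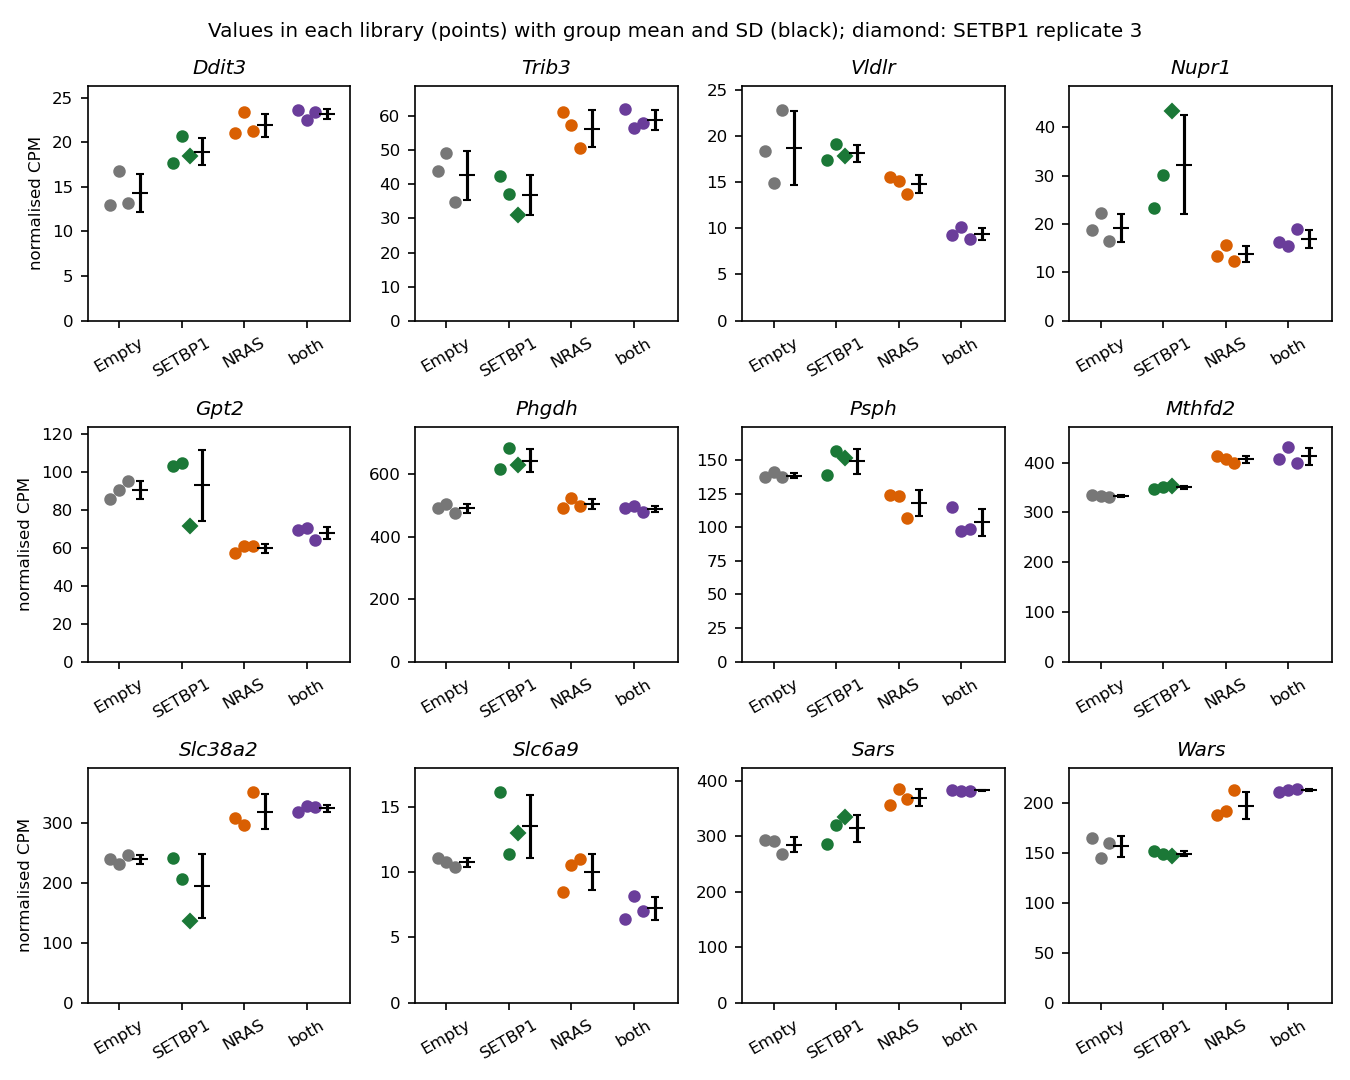
Normalised CPM of 12 of the genes in each of the 12 libraries (points) with the group mean and SD (n = 3 libraries a group), each panel with its own axis from 0. A diamond marks SETBP1 replicate 3. Ddit3, Trib3, Mthfd2, Slc38a2, Sars and Wars are higher in the libraries with NRAS than in Empty, Gpt2 is lower in them, and Vldlr is lowest where both mutants were present.

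Among the enzymes, Phgdh catalyses the step from glycolysis into serine synthesis (chromosome 3, 98313170 to 98339990, GRCm38). It was at 493, 505 and 476 CPM in Empty, 617, 685 and 629 in SETBP1, 493, 524 and 499 in NRAS, and 490.4, 497 and 479 in SETBP1+NRAS. The SETBP1 libraries were above all 9 others, and the other groups overlapped. Phgdh rose 1.31-fold with SETBP1 (log2 change 0.39, SE 0.06, adjusted p = 0.0029), and it fell by 0.40 from SETBP1 to SETBP1+NRAS (SE 0.06, adjusted p = 0.000221).

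Shmt2, the mitochondrial enzyme that turns serine into glycine and hands the carbon to folate, was at 399, 415 and 386 CPM in Empty, 497, 517 and 498 in SETBP1, 420.1, 437 and 411 in NRAS, and 462, 510.1 and 476 in SETBP1+NRAS. All 6 libraries with SETBP1 were above all 6 without it. The rise was 0.33 with SETBP1 (SE 0.06, adjusted p = 0.00628) and 0.27 with both against Empty (SE 0.06, adjusted p = 0.00358). With library-size scaling the latter call of Shmt2 was lost (0.0914). Its exons overlap those of Ndufa4l2.

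Mthfd2, the next mitochondrial folate enzyme and a gene that many tumours raise, followed NRAS. It was at 335, 333 and 332 CPM in Empty, 347, 351 and 353 in SETBP1, 414, 408 and 399 in NRAS, and 408.5, 432 and 399 in SETBP1+NRAS. The 6 libraries with NRAS were above the 6 without. Mthfd2 rose by 0.29 with NRAS (SE 0.06, adjusted p = 0.00178) and by 0.31 with both (SE 0.06, adjusted p = 0.000766).

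Psph and Psat1 complete serine synthesis after Phgdh and moved in opposite directions. Psph, the phosphatase of the final step, was at 137, 141 and 137 CPM in Empty, 139, 157 and 152 in SETBP1, 124, 123 and 107 in NRAS, and 115, 96.9 and 98.8 in SETBP1+NRAS. All 6 NRAS-carrying libraries were below the other 6. Psph fell by 0.42 with both against Empty (SE 0.09, adjusted p = 0.00186), and its NRAS change was -0.23 (adjusted p = 0.0601), which passed without SETBP1 replicate 3 (adjusted p = 0.0232). Psat1, the transaminase of the middle step, rose by 0.25 with NRAS (SE 0.07, adjusted p = 0.0133) and by 0.28 with both (adjusted p = 0.00542), from 394.5 ± 23.4 CPM to 469.7 ± 7.42 and 479.4 ± 12.8. Its NRAS call was lost without Empty replicate 3 (adjusted p = 0.0841) and with upper-quartile scaling (0.0502). With library-size scaling both calls of Psat1 were lost (0.152 with NRAS and 0.134 with both). In no group did Phgdh, Psat1 and Psph all pass in the same direction.

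Gpt2, a mitochondrial transaminase that exchanges nitrogen between alanine and glutamate, was at 85.7, 90.5 and 95.3 CPM in Empty, 103, 105 and 71.5 in SETBP1, 57.2, 60.9 and 61.2 in NRAS, and 69.4, 70.4 and 64.5 in SETBP1+NRAS. The NRAS-carrying libraries were below all others. It fell by 0.60 with NRAS (SE 0.13, adjusted p = 0.00238) and by 0.41 with both (SE 0.13, adjusted p = 0.0177). The latter call was lost without Empty replicate 3 (adjusted p = 0.0596) or SETBP1+NRAS replicate 3 (0.0693).

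Asns, which makes asparagine and is the standard reporter of amino acid shortage, was at 374, 369.8 and 355 CPM in Empty, 345, 338 and 317 in SETBP1, 389, 396 and 382 in NRAS, and 375, 369.9 and 362 in SETBP1+NRAS. The SETBP1 libraries were below and the NRAS libraries above the Empty ones, by small amounts. The changes were -0.14 with SETBP1 (adjusted p = 0.133), 0.09 with NRAS (0.287) and 0.01 with both (0.914), and none passed. Aldh18a1 and Pycr1, which make proline, passed in no pairwise comparison. Without SETBP1 replicate 3, Aldh18a1 was lower with both than in Empty (-0.19, adjusted p = 0.0127). Of the 9 enzymes, 2 rose with SETBP1, 2 rose and 1 fell with NRAS, and 3 rose and 2 fell with both against Empty. Beside these, 14.9%, 32.5% and 40.6% of all genes tested passed in the same order.

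The summed level of the 7 transporters, on the TMM scale, was 1260 to 1292 CPM in Empty, 1295 to 1402 in SETBP1, 1490 to 1553 in NRAS and 1605 to 1646 in SETBP1+NRAS. The groups did not overlap on that scale. The TMM factors ran from 0.9541 to 1.0457 within SETBP1. The gaps of SETBP1 from Empty (1295 against 1292) and from NRAS (1402 against 1490) therefore depend on the scaling. These sums are dominated by Slc1a5, Slc3a2, Slc7a5 and Slc38a2. With both mutants against Empty, 4 of the 7 rose, 1 fell and the median change was 0.35, where 40.6% of all genes tested passed (20.8% higher).

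Slc3a2, the heavy chain that pairs with several amino acid exchangers at the cell surface, was at 346, 353 and 340.3 CPM in Empty, 413, 391 and 543 in SETBP1, 417, 431 and 403 in NRAS, and 478, 445 and 477.5 in SETBP1+NRAS. Every library with a mutant was above every Empty library, and SETBP1 replicate 3 was the highest. Slc3a2 rose by 0.37 with SETBP1 (SE 0.10, adjusted p = 0.0263) and by 0.43 with both (SE 0.10, adjusted p = 0.00362), and its NRAS change was 0.27 (adjusted p = 0.0561). Without SETBP1 replicate 3 the SETBP1 change was 0.22 (adjusted p = 0.0222), the NRAS change of 0.27 passed (adjusted p = 0.000466) and so did the change from SETBP1 to SETBP1+NRAS (0.22, adjusted p = 0.00684). The SETBP1 call was lost without any Empty library (adjusted p = 0.0829, 0.0537 and 0.101).

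Slc7a5, its partner in the large neutral amino acid exchanger LAT1, was at 252, 237 and 276 CPM in Empty, 244, 235 and 196 in SETBP1, 259.5, 275 and 293 in NRAS, and 269, 283 and 283 in SETBP1+NRAS. The groups with and without NRAS overlapped in part. The only call was a rise of 0.30 from SETBP1 to SETBP1+NRAS (SE 0.09, adjusted p = 0.0144), lost with library-size scaling (0.107). Slc1a5, a glutamine transporter, was at 364, 350.0 and 349.9 in Empty, 406, 369.8 and 426 in SETBP1, 400.4, 449.6 and 384 in NRAS, and 434, 471 and 456 in SETBP1+NRAS. The mutant libraries were all above Empty. It rose by 0.35 with both (SE 0.08, adjusted p = 0.00207) and by 0.21 with NRAS (SE 0.08, adjusted p = 0.0459), the latter lost in 15 of 23 settings, among them 9 that left out 1 library (all but SETBP1 replicates 2 and 3 and NRAS replicate 3; adjusted p = 0.05 to 0.209). It also rose from SETBP1 to SETBP1+NRAS when SETBP1 replicate 3 was left out (0.23, adjusted p = 0.0138).

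Slc38a2 encodes SNAT2, a neutral amino acid transporter that starved cells induce. It was at 239, 231 and 246 CPM in Empty, 242, 207 and 136 in SETBP1, 309, 296 and 352 in NRAS, and 318, 328 and 327.5 in SETBP1+NRAS. All 6 NRAS-carrying libraries were above the other 6, and SETBP1 replicate 3 was the lowest. Slc38a2 rose by 0.42 with NRAS (SE 0.15, adjusted p = 0.044) and by 0.44 with both (SE 0.15, adjusted p = 0.0282). These calls were lost in 15 and 9 of 23 settings. Both were lost with library-size scaling (adjusted p = 0.162 and 0.152) and with upper-quartile scaling (0.0896 and 0.0674). Both were also lost without any 1 Empty or SETBP1+NRAS library (0.0589 to 0.123). The first was lost too without any 1 NRAS library (0.0592 to 0.161) or SETBP1 replicate 2 (0.0545). Without SETBP1 replicate 3, however, the adjusted p was 6.29e-05 and 2.56e-05. Against SETBP1 the rise with both was 0.73 (SE 0.15, adjusted p = 0.00141), or 0.53 (adjusted p = 1.78e-05) without that library.

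Slc7a1, the arginine and lysine importer CAT1 (chromosome 5, 148327410 to 148399904, GRCm38), was at 51.8, 59.4 and 50.5 CPM in Empty, 65.0, 64.5 and 27.2 in SETBP1, 78.0, 79.5 and 70.1 in NRAS, and 84.8, 83.1 and 82.5 in SETBP1+NRAS. All NRAS-carrying libraries were above all others. Slc7a1 rose by 0.63 with both against Empty (SE 0.23, adjusted p = 0.0398). This call was lost with library-size scaling (adjusted p = 0.123) and without any library of Empty, NRAS or SETBP1+NRAS (0.0509 to 0.118). Without SETBP1 replicate 3, however, its adjusted p was 3.47e-06. The NRAS change of 0.49 did not pass with that replicate (adjusted p = 0.115) and passed without it (8.63e-05). From SETBP1 to SETBP1+NRAS it rose by 0.68 (SE 0.23, adjusted p = 0.0285), or by 0.37 (adjusted p = 0.00346) without that replicate. That rise did not pass with library-size scaling (0.0803) or without any SETBP1+NRAS library (0.061 to 0.07).

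Slc6a9, the glycine transporter GlyT1, was at 11.1, 10.8 and 10.4 CPM in Empty, 16.1, 11.4 and 13.0 in SETBP1, 8.46, 10.6 and 11.03 in NRAS, and 6.43, 8.19 and 6.996 in SETBP1+NRAS. The libraries with both mutants were below all 9 others, as for Vldlr. It fell by 0.57 with both against Empty (SE 0.19, adjusted p = 0.0269), a call lost without any 1 Empty library or without SETBP1+NRAS replicate 1 or 3 (adjusted p = 0.0509 to 0.0977). It fell by 0.90 from SETBP1 to SETBP1+NRAS (SE 0.19, adjusted p = 0.00175). Its exons overlap those of B4galt2 and Ccdc24. Slc1a4, a neutral amino acid exchanger, passed in no pairwise comparison, and its count in SETBP1 replicate 3 was 33 against 129 and 124 in replicates 1 and 2.

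The tRNA synthetases load each amino acid onto its tRNA. Their summed level on the TMM scale was 3320 to 3445 CPM in Empty, 3148 to 3481 in SETBP1, 3749 to 3977 in NRAS and 3869 to 3990 in SETBP1+NRAS, so the groups with NRAS lay above those without. All 11 had a positive log2 change with NRAS, of which 3 passed (Gars, Sars and Wars), and the median was 0.17, while with library-size scaling 8 were positive with a median of 0.07 and with upper-quartile scaling 10 were. With both against Empty, 5 rose (Gars, Nars, Sars, Tars and Wars), and none of the 11 passed with SETBP1 alone. Of all genes tested, 32.5% passed with NRAS (17.0% higher), 40.6% with both against Empty (20.8% higher) and 14.9% with SETBP1 (8.31% higher).

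Wars, for tryptophan, was at 165, 144 and 159.5 CPM in Empty, 152, 148 and 147 in SETBP1, 187.5, 191 and 212 in NRAS, and 211, 213 and 213 in SETBP1+NRAS. The 6 NRAS-carrying libraries were above the other 6. Wars rose by 0.34 with NRAS (SE 0.07, adjusted p = 0.00293), by 0.44 with both against Empty (SE 0.07, adjusted p = 0.000267) and by 0.51 against SETBP1 (SE 0.07, adjusted p = 9.04e-05).

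Sars, for serine, was at 294, 292 and 269 CPM in Empty, 287, 321 and 335 in SETBP1, 356, 386 and 368 in NRAS, and 384, 382 and 383 in SETBP1+NRAS. The libraries with NRAS were again all above the rest. Sars rose by 0.38 with NRAS (SE 0.07, adjusted p = 0.00113), by 0.43 with both against Empty (SE 0.07, adjusted p = 0.000309) and by 0.28 against SETBP1 (SE 0.07, adjusted p = 0.00585). With the length trend of each library removed, the last change was 0.18 (adjusted p = 0.0946).

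Tars, for threonine, was at 271, 253 and 267 CPM in Empty, 249, 244 and 250 in SETBP1, 290.2, 295 and 304 in NRAS, and 286, 307 and 308 in SETBP1+NRAS. The groups with NRAS were above those without. Tars rose by 0.19 with both against Empty (SE 0.06, adjusted p = 0.0271). This call was lost in 8 of 23 settings. Among them were library-size scaling (0.06, adjusted p = 0.442) and upper-quartile scaling (0.12, adjusted p = 0.118). It was also lost without replicate 2 or 3 of Empty or of SETBP1+NRAS (0.0704 to 0.112). Against SETBP1, Tars rose by 0.28 with both (SE 0.06, adjusted p = 0.00274), or by 0.14 (adjusted p = 0.127) with the length trend removed. Nars, for asparagine, was at 614, 600.3 and 592 in Empty, 588, 639.9 and 699.5 in SETBP1, 656, 651 and 682.5 in NRAS, and 731, 707 and 729 in SETBP1+NRAS. The libraries with both mutants were the highest. Nars rose by 0.26 with both against Empty (SE 0.07, adjusted p = 0.00706), a call lost with library-size scaling (0.0555). Leaving out SETBP1 replicate 3, the NRAS changes of Tars (0.17, adjusted p = 0.0186) and Nars (0.14, adjusted p = 0.0326) passed, as did that of Nars from SETBP1 to SETBP1+NRAS (0.24, adjusted p = 0.00273).

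Aars, for alanine, was at 329, 300.2 and 322 CPM in Empty, 299.6, 304 and 214 in SETBP1, 317, 334 and 345 in NRAS, and 331, 345 and 332.5 in SETBP1+NRAS. SETBP1 replicate 3 was far below the rest. Aars passed only from SETBP1 to SETBP1+NRAS (0.30, SE 0.11, adjusted p = 0.0369). Without SETBP1 replicate 3 the change was 0.16 (adjusted p = 0.0487), and the call was lost in 13 of 23 settings. These included removal of the length trend (0.09, adjusted p = 0.188) and leaving out any Empty or SETBP1+NRAS library or NRAS replicate 3 (0.0507 to 0.0996). Its exons overlap those of Exosc6, and those of Yars overlap C77080. Gars, for glycine, rose by 0.24 with NRAS (SE 0.06, adjusted p = 0.0108) and by 0.23 with both (adjusted p = 0.0121), from 523.1 ± 8.40 CPM in Empty. Both calls were lost without Empty replicate 3 (0.0533 and 0.0572), and the second also with library-size scaling (0.138). Gars was also higher with both than with SETBP1 when SETBP1 replicate 3 was left out (0.16, adjusted p = 0.0255). Yars, Iars, Lars, Eprs and Cars passed in no pairwise comparison, and without SETBP1 replicate 3 the NRAS change of Eprs passed (log2 change 0.17, adjusted p = 0.033).

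**Figure D4:**
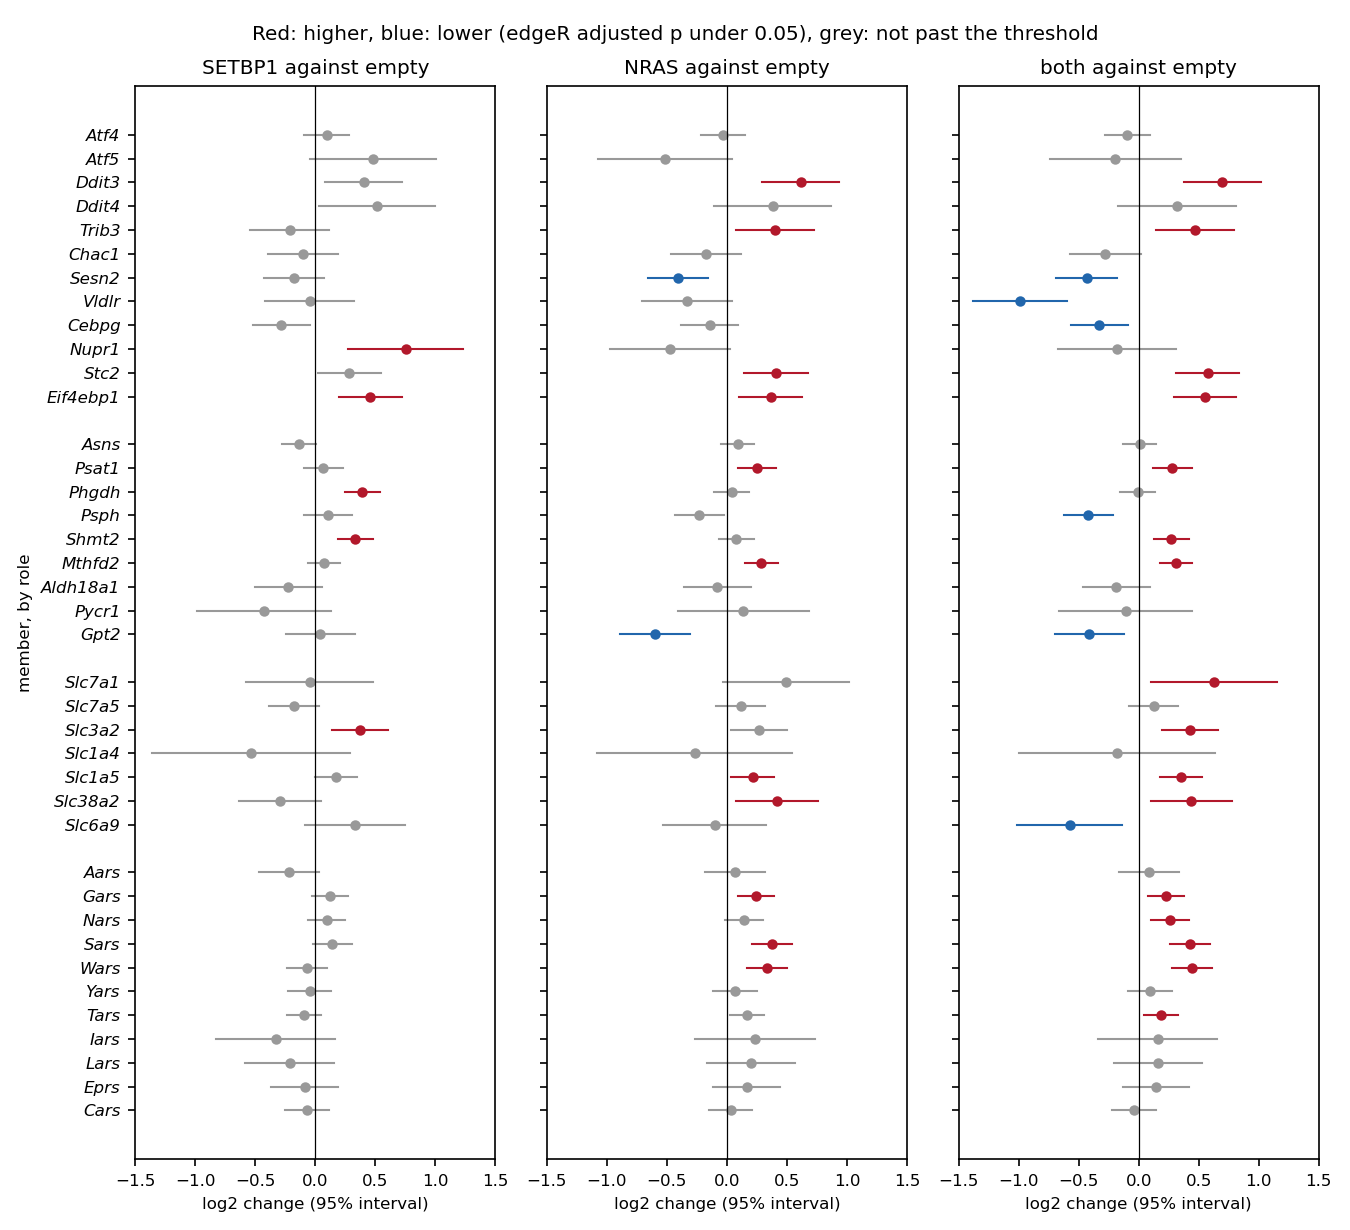
Log2 change from Empty (points) with 95% confidence intervals (bars) of the 39 genes, by role, for SETBP1, NRAS and SETBP1+NRAS, from the edgeR fit to all 12 libraries. Phgdh departs from 0 with SETBP1 only (0.39), Vldlr lies farthest below 0 with both mutants (-0.99) and the tRNA synthetases lie mostly above 0 in the groups with NRAS (by library-size scaling, 8 of 11 with NRAS).

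Whether SETBP1 changed these genes on top of NRAS was asked by comparing SETBP1+NRAS with NRAS. None of the 39 genes passed the edgeR threshold, where 1.91% of all genes did (0.528% higher, 1.38% lower). Vldlr, Shmt2 and Slc6a9 had an unadjusted p under 0.05. For Vldlr the change was -0.65 (SE 0.17, adjusted p = 0.077), for Shmt2 0.19 (SE 0.06, adjusted p = 0.179) and for Slc6a9 -0.47 (adjusted p = 0.325). Without SETBP1 replicate 3, Vldlr (-0.65, adjusted p = 0.02) and Shmt2 (0.19, adjusted p = 0.0411) passed. DESeq2 called 1 of the 39, Vldlr (adjusted p = 0.0347), and limma-voom called 0. The median change of the 39 genes was 0.02, and that of all genes 0.00.

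The interaction asks whether the SETBP1 change with NRAS present differs from that without it, on the log2 scale. None of the 39 passed in edgeR, where 0.0455% of all genes did (0.00910% higher, 0.0364% lower), and 4 had an unadjusted p under 0.05. These were Phgdh (-0.44, SE 0.09, adjusted p = 0.165), Vldlr (-0.61, SE 0.24, adjusted p = 0.337), Psph (-0.29, adjusted p = 0.355) and Slc6a9 (-0.80, SE 0.26, adjusted p = 0.275). DESeq2 called 1, Phgdh (-0.44, adjusted p = 0.000455), and limma-voom called 0. In edgeR, Phgdh passed without SETBP1 replicate 1 (-0.47, adjusted p = 0.0431) or 3 (-0.45, adjusted p = 0.00937). Whether the rise of Phgdh with SETBP1 alone differed from its change with NRAS present thus depended on the tool and on single libraries. In the fits to all 12 libraries, DESeq2 called the difference, and edgeR and limma-voom did not.

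Genes around the 39 were read from lists of the same pathways. Of all genes tested, 14.9% passed with SETBP1 (8.31% higher) and 32.5% with NRAS (17.0% higher). With both against Empty, 40.6% passed (20.8% higher). With NRAS, the share called was near that of all genes for the unfolded protein response (6 of 19), amino acid breakdown (7 of 23) and mTORC1 sensing (7 of 25). Among 17 other amino acid transporters tested, 4 rose and 4 fell with NRAS, and 8 rose and 6 fell with both against Empty. Slc7a11, the cystine importer xCT and an ATF4 target, was at 11.2, 10.7 and 10.9 CPM in Empty, 23.1, 24.8 and 22.2 in SETBP1, 131, 121.5 and 152 in NRAS, and 103, 109.7 and 106 in SETBP1+NRAS. No groups overlapped. It rose by 1.10 on the log2 scale with SETBP1 (SE 0.11, adjusted p = 0.000344), by 3.62 with NRAS (SE 0.11, adjusted p = 4.62e-11) and by 3.28 with both (SE 0.11, adjusted p = 9.03e-11), more than any of the 39. The mitochondrial ornithine carrier Slc25a15 and the aspartate-glutamate carrier Slc25a13 rose by 1.42 and 1.09 with NRAS (adjusted p = 2.57e-07 and 3.72e-06).

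Of 14 folate genes tested, 8 rose and 1 fell with NRAS, with a median change of 0.42, and 9 rose and 1 fell with both against Empty, with a median of 0.46. Mtrr, which keeps methionine synthase active, rose by 0.83 (adjusted p = 0.000694) and the mitochondrial formate-producing enzyme Mthfd1l by 0.53 (adjusted p = 0.00125). Aldh1l1, which oxidises folate-bound carbon, fell by 1.46 with NRAS (SE 0.27, adjusted p = 0.000862) and by 2.57 with both (SE 0.29, adjusted p = 1.11e-05). Of 9 other cytosolic tRNA synthetases, 4 rose and none fell in each of these comparisons, among them Rars (0.59 and 0.65), Hars (0.45 and 0.51) and Farsb (0.39 and 0.39).

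Upstream of ATF4, 5 of 14 genes for eIF2, its kinases and its phosphatase rose with NRAS and 1 fell, and 7 rose and 2 fell with both. Eif2s1, the phosphorylated subunit of eIF2, rose by 0.60 with NRAS (adjusted p = 2.92e-05) and its exchange factor subunit Eif2b3 by 0.71 (adjusted p = 0.000138). Eif2ak3, the endoplasmic reticulum kinase PERK, fell by 0.82 (SE 0.19, adjusted p = 0.00434). Of 19 genes of the unfolded protein response, 3 rose and 3 fell with NRAS, including Xbp1 (-1.06, adjusted p = 3.82e-06), Edem1 (0.68) and Creld2 (0.66). With SETBP1 alone, 2 of the 14 rose and 1 fell, and 3 of the 19 fell. Ppp1r15a, the phosphatase subunit GADD34 and an ATF4 target, rose with SETBP1 by 0.55 (SE 0.13, adjusted p = 0.0171), a call lost without Empty replicate 1 or 3.

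Among 23 genes of amino acid breakdown and interconversion, 7 rose and 1 fell with SETBP1, and 6 rose and 1 fell with NRAS. Arg1, the cytosolic arginase, was at 345, 455 and 308 CPM in Empty, 735, 453 and 984.5 in SETBP1, 1643, 1568 and 1461 in NRAS, and 2914, 2623 and 2267 in SETBP1+NRAS. SETBP1 overlapped Empty through replicate 2, and the NRAS groups lay above all others. Arg1 rose by 0.97 with SETBP1 (SE 0.22, adjusted p = 0.0126) and by 2.08 with NRAS (SE 0.22, adjusted p = 9.76e-06), the first lost without Empty replicate 1 or 3. Bcat1, which starts the breakdown of branched-chain amino acids, rose by 1.22 with NRAS (SE 0.10, adjusted p = 7.54e-07) and by a further 0.44 from NRAS to SETBP1+NRAS (SE 0.10, adjusted p = 0.0329), the latter lost in 12 of 23 settings, among them without any Empty, NRAS or SETBP1+NRAS library. Bckdha, of the next step, fell by 1.07 with NRAS (SE 0.12, adjusted p = 1.76e-05). Of 25 genes of amino acid sensing by mTORC1, 3 rose and 4 fell with NRAS, and Sesn1, a relative of Sesn2, fell by 0.81 (SE 0.16, adjusted p = 0.00179).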

How the data were processed

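Per the labels' protocols, RNA came from an RNeasy micro kit extraction and libraries from a SMART-Seq kit for very low input. The authors deposited whole-number counts per gene (19910 genes, of which 5080 had no count in any library). The submitters' processing notes name STAR, DESeq2 and mm10. The counting tool, the annotation and the strand rule are not given in the sources used here. SMART-Seq libraries usually carry no strand, and overlapping genes were listed from GENCODE M21 exons (9 of the 39 share exon bases with another annotated gene, 6 of them with one in the table).

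Counts were tested with edgeR 4.0.16 in R 4.3.3 (TMM scaling, filterByExpr at count 10 and total 15, quasi-likelihood F test), with all 12 libraries fitted as 4 group means and 8 residual degrees of freedom. Benjamini-Hochberg adjustment ran over the 10993 genes tested in each of 6 comparisons, which hold 99.9% of counts. Levels are CPM on TMM-scaled library sizes, with SD over 3 libraries, and per kilobase values divide by the merged length of a gene's GENCODE M21 exons. Replicates were compared with each other, and none agreed within sampling noise. Alternatives were DESeq2 1.42.0, limma-voom (limma 3.58.1), other scalings and filters, only the groups compared, a replicate block, each library left out and, chosen after seeing the data, a fit with each library's length trend removed. The scripts were tested on simulated counts.

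The 39 genes and the lists around them were chosen with earlier results of these data known. Values in every library are given for Atf4, Ddit3, Asns and Slc7a5 and, in each role, for the 5 genes with the largest absolute log2 change past the threshold in any pairwise comparison. In the lists around the 39, the genes named are among the 3 with the largest absolute change past the threshold in a comparison. Per-library values there were given for Slc7a11 and Arg1, which were chosen after their values were seen.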

Additional observations from a re-analysis of the deposited data

Results flagged for a closer look

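The change that SETBP1 made to Slc7a11, the cystine importer, differed with and without NRAS, by a test of the difference itself. Without NRAS, SETBP1 libraries stood above Empty (23.1, 24.8 and 22.2 against 11.2, 10.7 and 10.9 CPM), and with NRAS, SETBP1+NRAS libraries stood below NRAS (103, 109.7 and 106 against 131, 121.5 and 152), a change of -0.34 that did not pass by itself (SE 0.09, adjusted p = 0.0873). The edgeR interaction was -1.44 on the log2 scale (SE 0.15, adjusted p = 0.00169), which passed in every setting tried, at -1.70 to -1.35. All 3 libraries of each group showed the direction.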

How the results depend on the processing

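Of 57 changes of the 39 genes past the threshold, 24 kept direction and call in all 23 settings, 33 lost the call in at least 1, and 0 reversed. Of 91 changes of the surrounding genes named by rule, 60 kept theirs, 31 lost the call in at least 1 and 0 reversed. The counts of the 39 called were 5 with SETBP1, 13 with NRAS, 22 with both against Empty, 0 against NRAS, 17 against SETBP1 and 0 for the interaction. With an adjusted p under 0.01 the first 3 and the fifth of these were 2, 5, 14 and 11. With only the groups compared, they were 0 with SETBP1 (Phgdh had adjusted p = 0.0649 and Shmt2 0.0802), 20 with NRAS, 2 against NRAS (Vldlr and Shmt2) and 10 against SETBP1, and the interaction was not run. DESeq2 gave 1 against NRAS and 1 for the interaction. Library-size scaling gave 15 and upper-quartile scaling 19 with both against Empty. Leaving out 1 library at a time gave 2 to 12 with SETBP1 (2 without Empty replicate 1 or 3, 12 without SETBP1 replicate 1), 7 to 20 with NRAS (7 without Empty replicate 3, 8 without Empty or NRAS replicate 1, 20 without SETBP1 replicate 3), 14 to 23 with both against Empty (14 without Empty replicate 3), 0 to 2 against NRAS, 13 to 23 against SETBP1 (23 without SETBP1 replicate 3) and 0 to 1 for the interaction. The cause of these differences was not tested.

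The replicate block gave 5, 11, 22, 0, 17 and 0 calls in the same order. Same-numbered libraries did not deviate together (r from -0.127 to 0.124 over 18 pairs, 1 of them over 0.1), so the numbers were not taken to pair the samples. Depth limits the low genes most: Ddit4 had 54 to 120 counts in a library and Slc1a4 33 to 147. Among genes with a call, Atf5 had 39 to 112 and Slc6a9 46 to 134.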
